A study of Mus musculus with 4 samples.

Results

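Circulating mononuclear cells of BL/6 mice were compared between 20 and 12 months of age, over all cells and within each cell class. The comparison covers 6583 of the 11721 cells that passed the same filter in the whole series, 3439 at 12 months and 3144 at 20 months. Members were chosen by label and by quality: BL/6 cells with 500 or more unique molecular identifiers (UMIs, counted RNA molecules), 200 or more genes, and no more than 10% of UMIs from mitochondrial genes. BL/6 is an inbred mouse strain given here as the labels spell it; no sex, genotype or treatment is labelled for either age. Blood came from cardiac puncture; density-gradient separation, a slow spin against platelets and lysis of red cells preceded the droplet run. "Whole blood" therefore means here the sum over these mononuclear preparations, from which most granulocytes and red cells had been removed.

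BL/6 cells of both ages are labelled as 1 mixed expression sample, deposited as 1 matrix per age, so there are no replicate samples and no difference below carries a test. Cells carried tag oligos, CMO301 to CMO303 at 12 months and CMO304 to CMO306 at 20 months, and cells sharing a leading tag are called an aliquot. No source used here says whether an aliquot is an animal or a pool, so aliquots show spread and are not replicates. Values in aliquots are given in the order of the tag numbers. Intervals are 95% intervals for counting error only.

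The mononuclear fraction of mouse blood is made up mainly of B lymphocytes, T lymphocytes and monocytes. Classical monocytes, which carry Ly6C and Ccr2, leave the marrow and enter inflamed tissue, and they give rise to nonclassical monocytes, which patrol the vessel wall. Plasma cells are the antibody-secreting descendants of B cells. Because these classes express very different genes, the level of a gene in whole blood depends both on how much of the RNA each class contributes and on how much of the gene each class makes.

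The kept cells held 18023698 UMIs at 12 months and 19194702 at 20 months, with medians of 4087 and 4961 UMIs and 1642 and 1876.5 genes per cell. Median mitochondrial content was 4.36% and 3.62%. Aliquots held between 915 and 1213 cells. At 12 months 17 kept cells had a leading tag listed for the other age and stayed out of every aliquot. No cell barcode was shared between the BL/6 matrices, and doublet calls took 1.19% and 1.34% of kept cells; these were kept in whole-blood sums as a part of their own.

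B cell-like cells made up 54.1% of kept cells at 12 months (53.2%, 54.9% and 54.2% in the 3 aliquots) and 25.3% at 20 months (25.02%, 21.4% and 28.6%). The difference of -28.8 percentage points had an interval of -31.1 to -26.6. Every 20-month aliquot lay below every 12-month aliquot by a wide margin. The class was named from 14 markers, among them Cd79a and Cd79b, the signalling chains of the B cell receptor, and Ms4a1, which encodes CD20. Most of it lay in 1 cluster at both ages, cluster 0, with 76.9% and 77.0% of the class.

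Monocytes took up most of that room. Nonclassical monocyte-like cells made up 11.7%, 10.2% and 10.1% of the 12-month aliquots and 23.9%, 23.9% and 20.0% of the 20-month aliquots, a difference of 11.8 points (interval 10.0 to 13.6). Classical monocyte-like cells made up 7.58%, 7.47% and 6.72% at 12 months and 14.8%, 17.9% and 15.6% at 20 months, a difference of 8.76 points (7.22 to 10.3). In both monocyte classes the aliquots of the 2 ages did not overlap. Classical monocyte-like cells held 13.4% of all UMIs at 12 months and 25.7% at 20 months, and were the deeper class, with a median of 8826 and 8385 UMIs per cell.

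T cell-like cells made up 13.1% and 16.8% of kept cells, with 12.0%, 13.3% and 14.0% in the 12-month aliquots and 15.99%, 17.7% and 16.9% at 20 months. This gap between the ages was 3.71 points with no overlap of aliquots, but 0.37 points when cells above 5% mitochondrial UMIs were left out. NK cell-like cells made up 2.59% and 2.13%, and their aliquots overlapped. Plasma cell-like cells were 3 of 3439 at 12 months and 46 of 3144 at 20 months, or 0.0872% and 1.46%. Their share in the 20-month aliquots was uneven, at 0.847%, 2.40% and 1.29%, against 1 cell in each 12-month aliquot. Cluster 1, led by Agbl1, Vpreb3 and Cecr2, held 4.19% and 4.99% of cells. It stayed unnamed because none of its 10 leading genes was a B cell marker while Spib, on the plasmacytoid dendritic cell list, was among them, although 14 of 14 B cell markers were detected in it. These are shares of recovered cells, which sum to 100 and say nothing about cells per volume of blood.

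**Figure D1:**
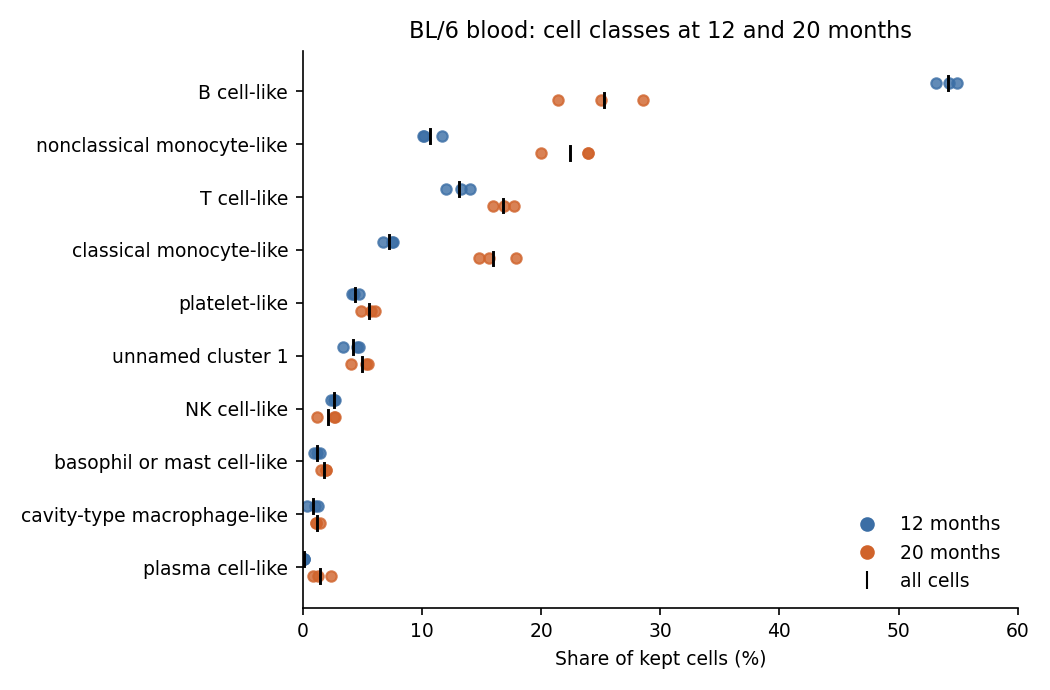
Share of kept cells (%, horizontal axis) in each cell class; points are the 3 tag aliquots of each age and black ticks all kept cells of the age. B cell-like cells stand at 54.1% at 12 months and 25.3% at 20 months, and the aliquots of both monocyte classes lie higher at 20 months without overlap.

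Of 8134 genes with a mean of at least 10 CPM (UMIs of the gene scaled to equal totals), 136 were at least 2-fold higher at 20 months in whole blood (1.67% of those tested) and 109 were at least 2-fold lower (1.34%). Ratios are log2 of CPM + 1, 20 over 12 months. All 136 and all 109 also had the 3 aliquots of one age above the 3 of the other, the same 1.67% and 1.34%. The median gene was at 0.02.

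The lineages behind these shifts were found by dividing each gene's CPM difference exactly over the classes, each with a part from its share of UMIs and a part from its own level. Nonclassical monocyte-like cells gave the largest part for 66 of the 136 higher genes and classical monocyte-like cells for 56. Plasma cell-like cells led 5, T cell-like and cavity-type macrophage-like cells 3 each, B cell-like cells 2 and neutrophil-like cells 1. Of the 109 lower genes, B cell-like cells led 93 and T cell-like cells 8, so the lower set was mostly the B lineage. Nonclassical monocyte-like cells led 4, NK cell-like cells 2, and cavity-type macrophage-like and classical monocyte-like cells 1 each.

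Shares outweighed levels in most of these genes. The share part was larger than the level part in 80 of 136 higher genes (58.8%) and 73 of 109 lower genes (67.0%). When the 20-month classes were weighted by their 12-month shares of UMIs, 28 of 136 (20.6%) were still at least 2-fold higher and 24 of 109 (22.02%) at least 2-fold lower. At a mitochondrial limit of 5%, where 69 genes were higher and 120 lower, these shares were 40.6% and 30.8%. Over all 8134 genes the median absolute log2 ratio was 0.18 in whole blood and 0.10 at 12-month shares. The share of UMIs joins the number of cells with the RNA caught per cell, which this division does not separate.

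The B cell markers show the pattern most plainly. All 14 of 14 were tested and 13 were at least 2-fold lower in whole blood, against 1.34% of all genes, with a median of -1.13. At 12-month shares the median was -0.02, and within B cell-like cells it was also -0.02. Ms4a1 stood at 356, 374 and 333 CPM in the 12-month aliquots and 171, 133 and 189 CPM in the 20-month aliquots of whole blood. Within B cell-like cells it stood at 708, 701 and 661 CPM against 688, 702 and 670 CPM, which overlap. Fcmr, the receptor for the Fc part of IgM, was lower by -1.47 in whole blood and by -0.28 within the class. Cr2, the complement receptor CD21, was lower by -1.52 and -0.36. These markers named the class, so their level within it is given as a description.

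Other groups carried by B cells or monocytes also lay nearer 0 at 12-month shares. Their counts in whole blood stand beside 1.67% of all genes higher and 1.34% lower. MHC class II presentation genes, which load and display peptides for CD4 T cells, had a median of -0.89 in whole blood, with 3 of 10 at least 2-fold lower, and of -0.21 at 12-month shares. In nonclassical monocyte-like cells, where the limit on RNA from other cells kept its members from being tested, the 10 genes summed to 4560, 5328 and 6171 CPM at 12 months and 1336, 1370 and 1383 CPM at 20 months, while the 14 B cell markers summed there to 125 and 126 CPM. In classical monocyte-like cells 7 of 7 tested members were below 0, with a median of -0.45. Of these 1 was at least 1.5-fold lower, against 2.85% of all genes. The 10 genes summed there to 10012, 11469 and 11337 CPM at 12 months and 6850, 10260 and 7168 CPM at 20 months, which overlap. The 14 B cell markers summed there to 186 and 135 CPM and the 12 conventional dendritic cell markers to 330 and 265 CPM. Their part in the class II values was not tested. Innate sensing and inflammation genes had a median of 0.79, with 5 of 18 at least 2-fold higher and 18 of 18 above 0, and of 0.06 at 12-month shares. Monocyte to macrophage and tissue factors had 4 of 13 at least 2-fold higher and a median of 0.83, against 0.07 at 12-month shares. Apoe, a lipid carrier made by macrophages and nonclassical monocytes, stood at 1176, 807 and 1115 CPM at 12 months and 2244, 2488 and 2320 CPM at 20 months, and its ratio of 1.19 was 0.57 at 12-month shares.

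**Figure D2:**
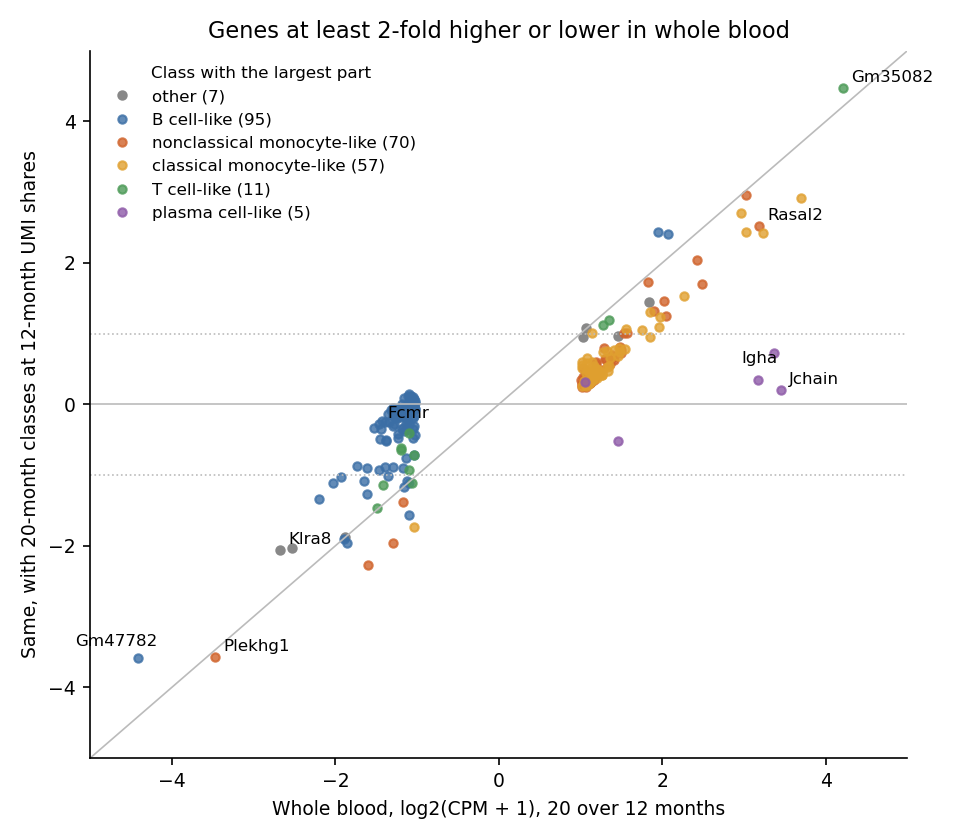
Each point is 1 of the 136 higher or 109 lower genes: horizontal axis, log2 ratio of CPM + 1 in whole blood (20 over 12 months); vertical axis, the ratio with the 20-month classes at their 12-month shares of UMIs; colour, the class that gave the largest part. The grey diagonal marks equal values and dotted lines mark 2-fold. Most B cell-led genes lie near 0 on the vertical axis, Jchain and Igha lie far below the diagonal, and Plekhg1 (-3.47 and -3.57) and Gm35082 (4.22 and 4.47) lie close to it.

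Antibody genes differed in both directions. Of 8 tested immunoglobulin constant region and J chain genes in whole blood, 2 were at least 2-fold higher, against 1.67% of all genes, and 4 at least 2-fold lower, against 1.34%, with a median of -0.39. The lower members were Ighm, Ighd, Iglc2 and Iglc3, at -1.14, -1.16, -1.15 and -1.11. Of 10 tested plasma cell markers 4 were at least 2-fold higher, 0 lower and 3 below 0, with a median of 0.67 that was 0.02 at 12-month shares. Jchain, which joins IgA and IgM into polymers, stood at 31.9, 26.5 and 93.8 CPM in the 12-month aliquots and 351, 833 and 493 CPM in the 20-month aliquots of whole blood, a log2 ratio of 3.45 (interval 3.35 to 3.55). Igha, the IgA heavy chain constant region on chromosome 12 (113256204-113260236, GRCm38.p6), stood at 101, 132 and 248 CPM and 1152, 2067 and 1136 CPM, a ratio of 3.18. Higher values in every 20-month aliquot were a condition for naming both genes. Leaving out 1 aliquot at a time gave ratios of 3.08 to 4.20 for Jchain and 2.86 to 3.63 for Igha. Plasma cell-like cells held 97.9% of the Jchain UMIs and 95.7% of the Igha UMIs, and at 12-month shares the ratios were 0.20 and 0.35. Within plasma cell-like cells Igha made up 65634 CPM in the 3 cells at 12 months and 47540 CPM in the 46 cells at 20 months. The 12-month level of this class rests on 3 cells.

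Several monocyte genes were higher beyond their class's share. Rasal2, a GTPase-activating protein for Ras (chromosome 1, 157135183-157412595), stood at 3.30, 5.98 and 5.96 CPM at 12 months and 54.1, 59.98 and 48.4 CPM at 20 months in whole blood. Its ratio of 3.18 was 2.52 at 12-month shares. Adgrl3, an adhesion receptor of the latrophilin family, had ratios of 2.49 and 1.70, and Qsox1, a secreted sulfhydryl oxidase, of 1.90 and 1.32. Il1b, the inflammatory cytokine interleukin 1 beta, stood at 51.0, 41.3 and 30.5 CPM against 168, 192 and 159 CPM, and its ratio of 2.04 was 1.24 at 12-month shares. Mmp8, a collagenase, and Emp1, a membrane protein, had ratios of 1.95 and 1.86, and 1.09 and 1.30 at 12-month shares. Chil3, a chitinase-like lectin of classical monocytes, had a ratio of 1.85 and of 0.95 at 12-month shares, so its shift was divided about evenly.

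The lower genes beyond the B cell share were led by Gm47782, a predicted gene read mostly in B cell-like cells (95.5% of its UMIs). It stood at 58.7, 76.2 and 63.6 CPM at 12 months and 2.72, 1.69 and 1.99 CPM at 20 months, a ratio of -4.42 (interval -4.74 to -4.09) that was -3.59 at 12-month shares. In the SM/J cells of the series it stood at 23.6 CPM at 12 months and 3.37 CPM at 20 months, the same direction in another strain. These SM/J values are sums over all cells, and the part of class makeup in them was not tested. Cpm, the gene of carboxypeptidase M, was lower by -2.03 and by -1.11 at 12-month shares. Zcwpw1, a reader of histone methylation known from meiosis, was lower by -2.20, but by only -0.64 when cells above 5% mitochondrial UMIs were left out. Tmem163, a zinc transporter, and Btla, an inhibitory receptor of lymphocytes, had ratios of -1.74 and -1.45, and -0.87 and -0.49 at 12-month shares. In these 2 genes the share parts, -99.98 and -78.1 CPM, were larger than the level parts, -95.7 and -41.7 CPM. 2610035D17Rik, a noncoding transcript, had ratios of -1.47 and -0.93.

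Other lower genes kept most of their ratio at 12-month shares or lay outside the B lineage. Saa3, an acute-phase serum amyloid, stood at 230, 109 and 295 CPM against 67.2, 39.2 and 60.9 CPM in whole blood. Of its UMIs 86.4% lay in the 30 and 38 cavity-type macrophage-like cells, where it stood at 6651 CPM at 12 months and 1281 CPM at 20 months. In Pttg1, Trim5 and Trim34a, B cell-like cells gave the largest part. Pttg1, which encodes securin, had a ratio of -1.86 and of -1.97 at 12-month shares. Trim5 and its neighbour Trim34a, antiviral-type TRIM genes on chromosome 7 (104263386-104288254 and 104244448-104262244), had ratios of -1.65 and -1.61, and -1.08 and -0.90 at 12-month shares.

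**Figure D3:**
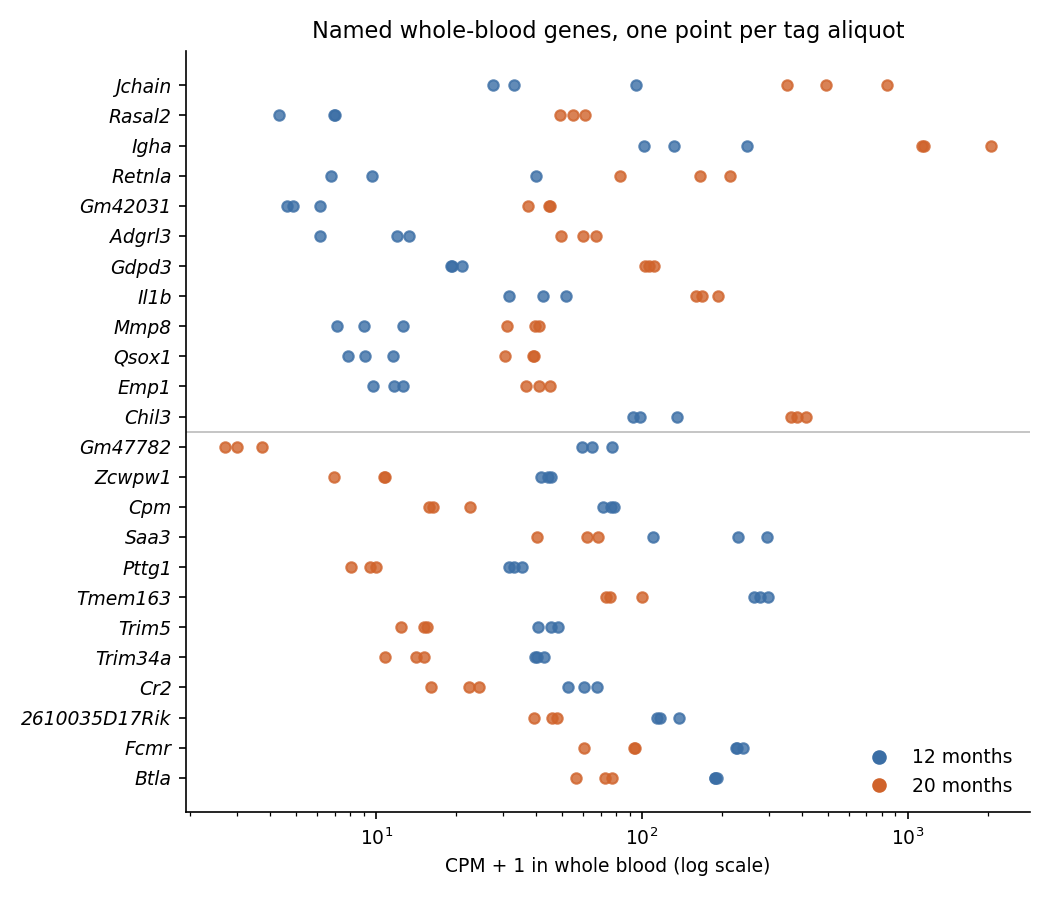
CPM + 1 in whole blood (horizontal axis, log scale) of the 12 highest and 12 lowest named genes; each point is 1 tag aliquot, blue at 12 months and orange at 20 months. Genes were named only where the 3 aliquots of one age lay apart from the 3 of the other, so all 24 show this. Spread among aliquots is widest for Jchain, Igha, Retnla and Saa3.

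Some genes differed alike in several classes. Gdpd3, a lysophospholipase D gene (chromosome 7, 126766414-126775645), stood at 20.1, 18.1 and 18.2 CPM at 12 months and 110, 106 and 101 CPM at 20 months in whole blood. It was at least 2-fold higher in 5 of 5 classes with 20 or more of its UMIs, by 3.78 in B cell-like, 4.28 in T cell-like, 1.505 in nonclassical monocyte-like, 1.06 in classical monocyte-like and 4.82 in platelet-like cells. The noncoding Gm35082 (chromosome 7, 100675007-100678142) was listed with 4 UMIs in T cell-like cells at 12 months and 179 at 20 months, and was at least 2-fold higher in 4 of 4 such classes. Gm42031, also noncoding (chromosome 8, 85125923-85131814), was so in 3 of 3 and Gm49980 in 4 of 4. Pttg1 was at least 2-fold lower in 4 of 4 classes and Trim5 in 3 of 4. These counts by class carry no limit on RNA released from other cells, whose part was not tested.

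Within classes, genes entered with at least 100 UMIs, a mean of at least 20 CPM in the class and at least 0.25 times the level of the highest other class, which limits RNA released from other cells. In B cell-like cells, of 4963 genes, 63 (1.27%) were at least 1.5-fold higher and 36 (0.725%) at least 1.5-fold lower. In nonclassical monocyte-like cells 166 of 5188 genes (3.2%) were higher and 168 (3.24%) lower. In classical monocyte-like cells 127 of 5189 (2.45%) were higher and 148 (2.85%) lower. In T cell-like cells 95 of 4759 (2.0%) were higher and 205 (4.31%) lower. The classes differ in cells and depth, so these counts do not rank them.

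In B cell-like cells the higher genes included Rapgef4, an exchange factor driven by cyclic AMP, at 98.2, 106 and 113 CPM in the 12-month aliquots and 396, 462 and 428 CPM in the 20-month aliquots, a ratio of 1.99 (1.87 to 2.12). Camk2b, a calcium-dependent kinase, stood at 6.14, 5.49 and 5.52 CPM against 38.1, 38.9 and 38.2 CPM. Aliquots apart were a condition for naming both genes, and the spread among aliquots of 1 age was small beside the difference. Rell1 was lower by -1.77 and Nxpe2 by -1.16. Cxcr4, the receptor that holds cells in the marrow, was higher by 1.01, and it was the 1 of 12 homing and survival receptors past 1.5-fold, against 1.27% of all genes. B cell receptor signalling genes had a median of 0.08 within the class, with 0 of 17 past 1.5-fold in either direction, and age-associated B cell genes had 1 of 7 higher and a median of -0.05. Igha had a ratio of 3.03 in this class, but 1 cell held 251 of its 622 UMIs at 20 months, the ratio was 2.32 without the top cell of each age, and it was 0.19 when the mitochondrial limit was 5%.

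Interferon-induced genes were lower in monocytes. In classical monocyte-like cells 20 of the 32 genes of the interferon response list were tested; 18 were at least 1.5-fold lower and 20 of 20 were below 0, with a median of -1.35 beside 0.01 for all genes tested in the class and 2.85% of genes lower. Isg15, a ubiquitin-like protein, stood at 98.3, 115 and 133 CPM at 12 months and 26.9, 13.9 and 17.0 CPM at 20 months, a ratio of -2.53 (-2.86 to -2.20). Ifi47, a GTPase of the same response, stood at 75.7, 87.8 and 74.9 CPM against 10.5, 11.3 and 11.0 CPM, and Rtp4 at 53.1, 35.1 and 38.1 CPM against 17.1, 4.41 and 7.15 CPM. No aliquot of these 3 genes crossed between the ages, which for Isg15 and Ifi47 was a condition for naming them. The members nearest 0 were Bst2, or tetherin, at -0.43, whose aliquots overlapped between the ages, and Ly6e at -0.50.

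Over a different set of tested members, nonclassical monocyte-like cells showed the same direction. Of the members tested there 7 of 11 were at least 1.5-fold lower, against 3.24% of all genes. All 11 of 11 were below 0, with a median of -0.79 beside 0.04 for all genes in the class. Zbp1, a sensor of viral nucleic acid, stood there at 157, 127 and 143 CPM against 40.3, 52.1 and 38.1 CPM. In B cell-like cells 3 of the 7 tested members were below 0 and the median was 0.00; in T cell-like cells 6 of 13 were below 0 and the median was 0.01. Whether the classes differ from each other was not tested, since each rests on the same pair of matrices. In whole blood the median of the 17 tested members was -0.31, or -0.49 at 12-month shares.

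Genes of MHC class I presentation, which cut, carry and display peptides to CD8 T cells and are themselves induced by interferon, were also lower in monocytes. In classical monocyte-like cells 10 of 11 were at least 1.5-fold lower, against 2.85% of all genes, with a median of -0.81 beside 0.01. In nonclassical monocyte-like cells 9 of 12 were, against 3.24%, with a median of -1.19 beside 0.04. Tap1, a subunit of the peptide transporter, stood at 111, 112 and 108 CPM in nonclassical monocyte-like cells at 12 months and 33.1, 27.9 and 29.2 CPM at 20 months, and H2-K1, a class I heavy chain, at 1915, 1945 and 1892 CPM against 882, 863 and 819 CPM. Psmb9, an immunoproteasome subunit, was lower by -1.47 there and by -1.32 in classical monocyte-like cells, and B2m, the class I light chain, by -0.46 and -0.62. Both classes were lower in every aliquot of these genes. In B cell-like cells 11 of 13 were below 0 with a median of -0.13 beside 0.04 for all genes. Nlrc5, the transactivator of class I genes, was the 1 of 13 at least 1.5-fold lower, at -0.95, against 0.725% of all genes. In T cell-like cells 12 of 13 were below 0 and 0 of 13 past 1.5-fold, with a median of -0.20 beside -0.08. Gbp2, an interferon-induced GTPase, was among the 5 lowest genes of both monocyte classes, at -2.30 and -2.81.

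**Figure D4:**
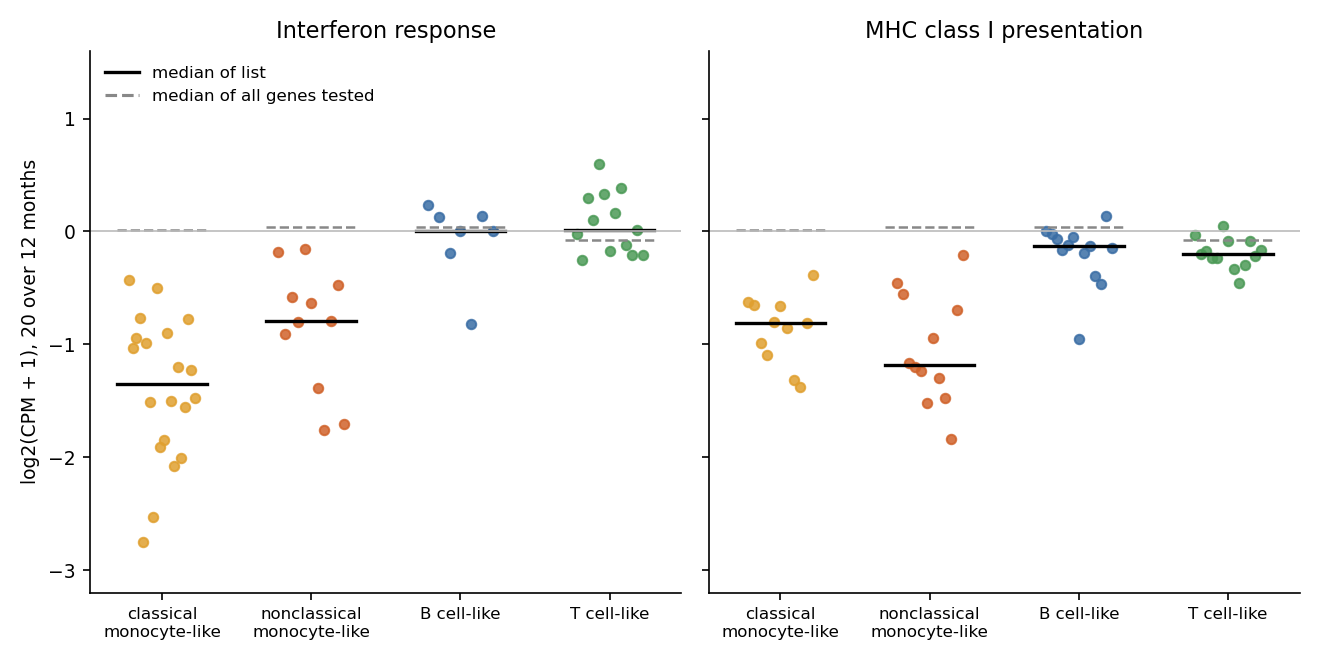
Log2 ratio of CPM + 1 (vertical axis, 20 over 12 months) of each tested member of the interferon response list (left) and the MHC class I presentation list (right) in 4 cell classes; points are genes, black lines list medians, dashed grey lines the median of all genes tested in the class. Interferon list medians stand at -1.35 and -0.79 in the monocyte classes and at 0.00 and 0.01 in B cell-like and T cell-like cells.

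Since the interferon response genes were lower together, their promoters were searched for the core of the interferon-stimulated response element, the motif GAAANNGAA, on both strands (TTCNNTTTC), in RefSeq windows from 250 bases before to 50 after the start site (GRCm38.p6). Of the 20 interferon list genes tested in classical monocyte-like cells 13 had a window, and 8 of these (61.5%) held a match. Among all genes tested in the class 385 of 4202 (9.16%) did, and over the whole promoter set 2638 of 27025 (9.76%). Of the genes at least 1.5-fold lower in the class 35 of 125 (28.0%) held one, and of the higher genes 12 of 103 (11.7%). Of the MHC class I presentation genes 2 of 10 (20.0%) did. The lower genes include members of the interferon and MHC class I lists, so these shares overlap. No share was computed without them. The windows of the 3 lowest list genes with a match are shown, 5′ to 3′ on the gene's strand, with matches in capitals. Those of Isg15 (chr4:156200769-156201068, minus strand) overlap one another, as do those of Oas3, and the first of Isg15 begins at position -78 from the start site. Oas3 lies at chr5:120777610-120777909 on the minus strand and Stat2 at chr10:128270248-128270547 on the plus strand. A match describes the letters of the window and is no measure of binding.
Isg15: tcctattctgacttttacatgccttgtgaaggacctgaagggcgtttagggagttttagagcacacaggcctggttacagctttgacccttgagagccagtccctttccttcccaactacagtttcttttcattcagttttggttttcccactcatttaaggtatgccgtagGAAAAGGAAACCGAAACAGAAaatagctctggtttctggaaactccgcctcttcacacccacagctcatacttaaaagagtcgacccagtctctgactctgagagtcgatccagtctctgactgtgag
Oas3: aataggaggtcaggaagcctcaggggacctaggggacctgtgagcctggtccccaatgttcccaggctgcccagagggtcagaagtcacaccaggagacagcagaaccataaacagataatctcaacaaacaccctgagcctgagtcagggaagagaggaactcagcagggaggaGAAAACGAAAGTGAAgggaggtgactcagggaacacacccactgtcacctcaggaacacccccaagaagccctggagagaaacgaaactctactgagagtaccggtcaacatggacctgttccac
Stat2: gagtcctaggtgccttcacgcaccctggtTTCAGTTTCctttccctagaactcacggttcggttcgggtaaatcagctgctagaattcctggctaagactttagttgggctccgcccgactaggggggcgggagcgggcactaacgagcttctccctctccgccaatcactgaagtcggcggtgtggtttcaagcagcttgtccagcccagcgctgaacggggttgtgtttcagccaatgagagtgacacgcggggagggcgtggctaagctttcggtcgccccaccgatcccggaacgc

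Other monocyte genes shifted in both directions. Plekhg1, an exchange factor gene (chromosome 10, 3740251-3967303), stood at 121, 128 and 120 CPM in nonclassical monocyte-like cells at 12 months and 1.203, 4.34 and 0 CPM at 20 months, with 312 and 9 UMIs in all, and a ratio of -5.44 (-6.08 to -4.75), or -6.26 without aliquot CMO305. In classical monocyte-like cells it had 147 and 3 UMIs and a ratio of -5.26. It was close to undetected in both classes at 20 months. In nonclassical monocyte-like cells Ramp1, a modifier of calcitonin-family receptors, was lower by -3.38, Ly6i by -2.45 and Aif1 by -2.10. Rasal2 was higher there by 4.00, Qsox1 by 3.47, Atp2b4, a calcium pump, by 2.96 and Atp11b, a lipid flippase, by 2.55, the last at 159, 122 and 136 CPM against 830, 828 and 842 CPM. In both monocyte classes Gm42031 was higher, by 4.48 and 3.38.

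In classical monocyte-like cells 4 of 10 tested inflammatory genes were at least 1.5-fold higher, against 2.45% of all genes, and 0 were lower. Il1b, Clec4e, Cd14 and Trem3 stood at 1.17, 1.00, 0.99 and 0.83, and the list median was 0.17 with 4 members below 0. Cd14, the coreceptor for bacterial lipopolysaccharide, stood at 63.3, 52.7 and 72.2 CPM against 122, 132 and 121 CPM. In nonclassical monocyte-like cells Il1b, at 1.30, and Trem1, at 0.67, were higher while the formyl peptide receptors Fpr1 and Fpr2 were lower, at -0.78 (with overlapping aliquots) and -0.71. Of the 11 tested markers of classical monocytes, 6 were above 0, 2 were at least 1.5-fold higher and 2 at least 1.5-fold lower, with a median of 0.08. Mmp8 stood at 1.15 and Chil3 at 1.03, Ccr2 at -0.02, Ly6c2 at -0.79 and Vcan, a proteoglycan, at -1.47; these markers named the class. Chil1, a chitinase-like protein, Hebp1, a heme-binding protein (chromosome 6, 135137519-135168215), and Lcn2, which binds bacterial siderophores, were higher by 3.84, 3.71 and 3.38, Chil1 by 4.47 without aliquot CMO302; Flt1, the receptor VEGFR1, was lower by -2.78. The 12 neutrophil markers summed to between 157 and 267 CPM in the 12-month aliquots of the class and between 231 and 326 CPM at 20 months, with 6 and 3 of them at 0; Lcn2 is one of them. The 12 platelet markers summed to 338, 387 and 331 CPM in the class at 12 months and 613, 713 and 845 CPM at 20 months, with 1 and 0 of them at 0, and 11 erythroid markers to between 80.2 and 98.3 CPM in every aliquot but CMO306, at 1167 CPM. The part of these cells in the differences of the class was not tested.

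Retnla, which encodes the secreted protein RELM alpha, had the highest ratio in classical monocyte-like cells, 6.55, but rested on few cells. It had 8 UMIs at 12 months and 1982 at 20 months, when 18 of 503 cells carried any and 1 cell carried 677. The 20-month aliquots stood at 628, 551 and 84.1 CPM. The ratio reversed to -0.16 when BL/6 cells were clustered alone and to -0.32 at a mitochondrial limit of 20%, and was 0.66 at a limit of 5%. When clusters were drawn more finely, Retnla led a cluster with 21 and 40 BL/6 cells that was named conventional dendritic cell-like. The 12 markers of that type summed in classical monocyte-like cells to 286, 366 and 343 CPM at 12 months and 315, 320 and 176 CPM at 20 months, with 0 and 1 of them at 0. The cavity-type macrophage-like cells, which share its expression, stood at 398 CPM (206 UMIs, of which 1 cell held 193) and 1400 CPM. The 12 markers of that class summed to between 248 and 344 CPM in the 12-month aliquots of classical monocyte-like cells and between 373 and 463 CPM at 20 months, with 1 and 0 of them at 0, against 14557 and 14970 CPM in the macrophage class itself. The part of either cell type in the Retnla ratio was not tested.

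T cell-like cells held less of the cytotoxic and more of the naive programme at 20 months. All 12 of 12 naive T cell genes were above 0 and 5 were at least 1.5-fold higher, against 2.0% of all genes tested in the class, with a median of 0.56 beside -0.08. Ccr7, the receptor that leads T cells into lymph nodes, stood at 103, 104 and 102 CPM at 12 months and 233, 224 and 229 CPM at 20 months, and Bach2, a repressor of effector genes, at 480, 503 and 508 CPM against 907, 763 and 798 CPM. Of the effector and memory list 5 of 10 were lower, against 4.31% of all genes, 1 was higher and the median was -0.53. Ccl5, a chemokine of memory and cytotoxic cells, stood at 5971, 6143 and 6056 CPM against 2064, 2972 and 2316 CPM, and Cxcr6 at 132, 95.4 and 90.25 CPM against 50.1, 38.4 and 35.9 CPM. The exception was Gzmm, the granzyme M gene, at 29.3, 32.6 and 35.9 CPM against 110, 108 and 82.5 CPM, a ratio of 1.599. Gzma, which encodes granzyme A, was read in 75 T cell-like cells at 12 months and 10 at 20 months, with 2011 and 23 UMIs. The 12 NK cell markers, Gzma among them, summed to 2514, 2740 and 2585 CPM in T cell-like cells of the 12-month aliquots and to 940, 1196 and 964 CPM at 20 months, with 0 and 2 of them at 0; their part in the effector list was not tested.

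The makeup of the class moved with these lists. Cluster 10, led by Cxcr6, Ccl5 and Itga1, held 177 of 451 T cell-like cells at 12 months and 52 of 529 at 20 months, and cluster 13, led by Lef1 and Igfbp4, held 92 and 222. Cd8a was lower in the class by -1.26 and Cd8b1 by -0.83, while Cd4 was higher by 0.64. Within cluster 13 alone, the largest over both ages together, the naive median was 0.05 and the effector median -0.26. These clusters were drawn partly from the same genes, and the part of the class's makeup in the list medians was not tested.

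Cycling genes were also lower in T cell-like cells, with 7 of 9 proliferation genes past 1.5-fold, against 4.31% of all genes, and a median of -1.005. Mki67, the proliferation marker Ki-67, had 142 UMIs in 20 cells at 12 months and 26 in 9 cells at 20 months, and Hist1h1b, a linker histone of dividing cells, 306 UMIs in 23 cells against 11 in 7. Ube2c and Top2a had ratios of -3.92 and -2.60. These values rest on few cells and on how those cells were classed: with BL/6 cells clustered alone the list median was -0.19 and Mki67 stood at 0.00, and at a mitochondrial limit of 20% the median was -0.28. In whole blood Mki67 had a ratio of -0.76. Phactr2 and Lhfpl3 were higher in the class by 1.86 and 1.61 and AI506816 lower by -2.49.

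**Figure D5:**
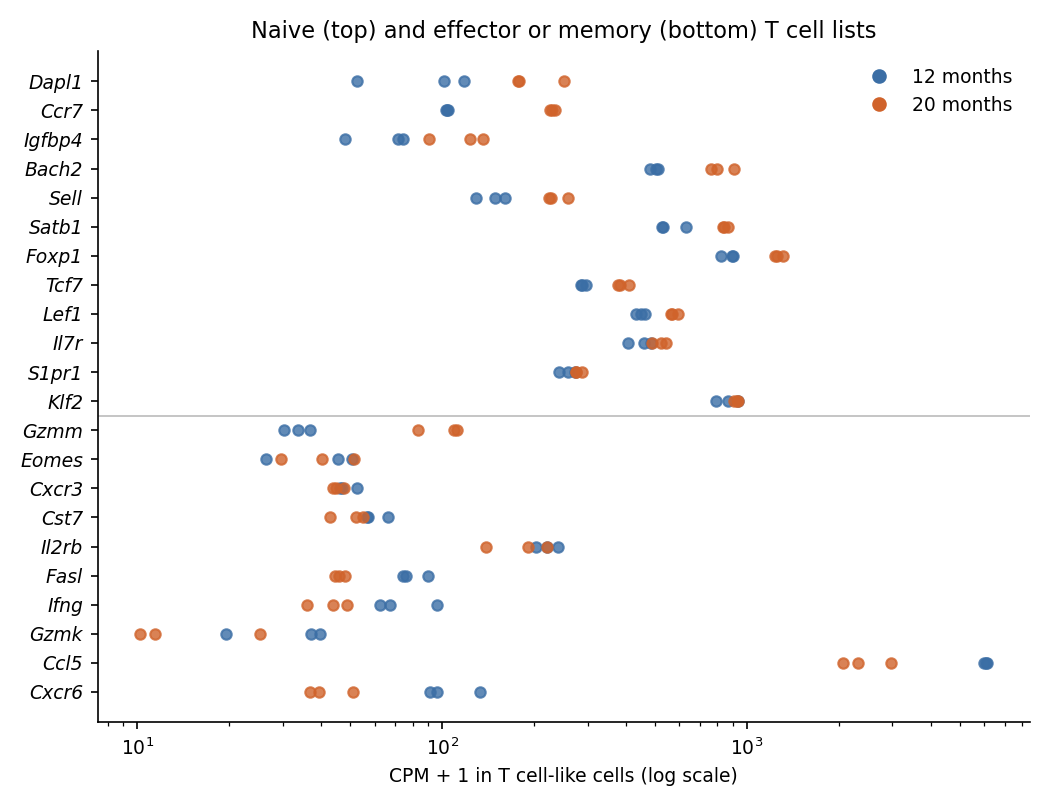
CPM + 1 in T cell-like cells (horizontal axis, log scale) of the tested naive genes (above the line) and effector or memory genes (below it), each ordered by ratio; points are tag aliquots, blue at 12 months and orange at 20 months. Ccr7 lies at 102 to 104 CPM at 12 months and 224 to 233 CPM at 20 months, and Ccl5 at 5971 to 6143 and 2064 to 2972 CPM, while Klf2 and Eomes overlap.

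NK cell-like cells, with 89 and 67 cells, were too few for a class comparison, but they led the whole-blood shift of 2 receptor genes of the natural killer gene complex on chromosome 6. Klra8, which encodes the activating receptor Ly49H (130115226-130129898), had 186, 174 and 161 UMIs in NK cell-like cells of the 12-month aliquots and 33, 28 and 14 at 20 months, or 1165 and 263 CPM of the class. Klrb1c, which encodes NK1.1 (128778485-128788641), had 140, 86 and 85 UMIs against 22, 13 and 19, or 690 and 190 CPM. The other 10 markers had log2 ratios within the class between -0.13 for Klrk1 and 0.72 for Eomes. Ncr1 stood at 851 and 797 CPM, Klre1 at 893 and 846 CPM and Gzma at 7611 and 8843 CPM. In whole blood 10 of 11 tested NK cell markers were below 0 and 5 at least 2-fold lower, against 1.34% of all genes, with a median of -0.9996 that was -0.41 at 12-month shares. Klra8 and Klrb1c are among the 12 markers of the class, so their levels within it are a description.

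Platelet-like cells, with 150 and 176 cells of a median of 1034.5 and 1001 UMIs, gave 434 tested genes, of which 21 (4.84%) were higher and 23 (5.3%) lower. Rgs18, a regulator of G-protein signalling in platelets, stood at 1000, 1372 and 1489 CPM at 12 months and 3131, 3270 and 3084 CPM at 20 months. S100a10, an S100 family partner of annexin, stood at 2137, 1951 and 2268 CPM against 331, 229 and 353 CPM. Hist1h2ac, Cox6b1, Twf1 and Wbp2 were higher by 0.99, 0.75, 0.74 and 0.71, but Twf1 stood at 0.41 without aliquot CMO303 and Wbp2 at 0.58 without CMO302, both short of 1.5-fold. Serpinb6a, Dut and Mctp1 were lower by -1.70, -1.58 and -0.99. Hbb-bt, a haemoglobin chain, had the lowest ratio, -7.57, with 541 and 3 UMIs, but 536 of the 541 lay in aliquot CMO301 and only 8 cells had any, and the ratio without that aliquot was -1.52.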

How the data were processed

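Droplet 3' libraries of BL/6 blood were deposited as raw UMI counts per gene and cell, 1 matrix per age, whose headers record software version 7.0.1; the submitters' processing notes name Cell Ranger, Seurat 4.3.0 and build mm10. Gene annotation: not given in the sources used here. Symbols came from the files (32285 genes; 99.6% of identifiers were in the reference gene table), and positions and promoters from RefSeq GRCm38.p6.

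Cells of all 4 matrices of the series (11721 kept) were clustered with scanpy 1.11.5 (Scrublet doublet calls at an expected rate of 0.06, 2000 variable genes, 30 components, 15 neighbours, Leiden resolution 1.0, 27 clusters) and named from 13 marker lists: a class needed 3 detected markers, and markers of a different class outnumbering its own within the top 10 genes left a cluster unnamed. UMIs were summed per age, aliquot and class and scaled to CPM. Ratios are log2 of CPM + 1 with exact conditional binomial 95% intervals; share intervals are Newcombe. With 1 matrix per age and no replicate samples there is no test. Calls were 2-fold in whole blood and 1.5-fold within classes of at least 100 cells at each age.

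Named genes in whole blood were the 12 highest and 12 lowest (mean of at least 20 CPM, aliquots apart, antigen receptor segments left out). Within each class they were the 5 highest and 5 lowest, with aliquots apart and the same segments left out. Members of each list with the largest ratios were also named. Others were chosen after their values were seen. One gene that the rule names is not reported here. Members, lists and rules were chosen with earlier results of these data known. A count of 3 UMIs corresponds to 0.166 and 0.156 CPM at the 2 ages. TMM scaling (edgeR 4.0.16) was tried as an alternative. The sums and intervals were tested on simulated counts. Software was Python 3.11.15, numpy 2.4.6, scipy 1.17.1, pandas 2.3.3, igraph 0.11.9 and R 4.3.3.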

Additional observations from a re-analysis of the deposited data

How the results depend on the processing

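The count of genes at least 2-fold higher and lower in whole blood, 136 and 109, became 277 and 243 with no filter beyond 10 UMIs, 50 and 42 at a mean of 50 CPM, both by construction, and 212 and 59 when each cell was weighted equally. A pseudocount of 5 CPM gave 94 and 71, and a mitochondrial limit of 5% gave 69 and 120. With that limit 40.6% of the higher and 30.8% of the lower genes were still 2-fold apart at 12-month shares, and the share differences were -21.4 points for B cell-like, 0.37 for T cell-like and 6.22 for classical monocyte-like cells; the cause was not tested. The classical monocyte-like difference was 7.03 points at a limit of 20% and 7.02 with BL/6 cells clustered alone. Leaving out 1 aliquot at a time gave 128 to 158 higher and 86 to 130 lower genes. Retnla in classical monocyte-like cells reversed to -0.32 at the limit of 20% and to -0.16 with BL/6 cells clustered alone, Mki67 in T cell-like cells reversed to 0.0042 with BL/6 clustered alone, and the neutrophil marker median in classical monocyte-like cells went from 0.85 to -0.18. Adding cluster 1 to the B cell-like cells, chosen after seeing the data, gave -28.0 points. The 24 named whole-blood genes kept their direction in 310 of 310 recomputed values, and the 50 named genes within classes in 547 of 550. These genes were named for the largest ratios with aliquots apart, so the 2 counts were largely fixed by that choice. The 111 medians of lists kept their sign in 456 of 515. The interferon median in classical monocyte-like cells stayed between -1.38 and -1.34. No paired analysis was possible because each age had 1 matrix of 1 mixed sample. Depth limits low genes most: values of a few UMIs in a class, and the classes with fewer than 100 cells, give wide counting intervals.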

Other observations

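Housekeeping groups differed little, but with opposite signs between classes. Cytosolic ribosomal protein genes were above 0 in 75 of 81 in T cell-like cells (median 0.13 beside -0.08 for all genes tested there) and below 0 in 78 of 80 in nonclassical monocyte-like cells (median -0.30 beside 0.04), where 3 of 80 were at least 1.5-fold lower, near the 3.24% of all genes. Nuclear-encoded oxidative phosphorylation genes had medians of -0.20 in nonclassical monocyte-like cells, -0.16 in T cell-like cells and 0.03 in classical monocyte-like cells. Heat shock chaperones had 0 members past 1.5-fold in B cell-like, T cell-like and both monocyte-like classes, and medians between -0.01 and 0.04. Immediate early genes, which respond to handling of cells, had 0 members past 1.5-fold in the same classes and medians between 0.01 and 0.20.

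Erythroid markers were uneven between aliquots. The 11 markers listed in the gene files were summed. In nonclassical monocyte-like cells they summed to between 64.6 and 90.4 CPM in the 12-month aliquots, with 4 of 11 at 0. In the 20-month aliquots they summed to 1299, 72.6 and 2135 CPM, with 2 of 11 at 0. In platelet-like cells they summed to 83273 CPM in aliquot CMO301 and to between 1784 and 2547 CPM in the other 5. In T cell-like cells they summed to 1194 CPM in CMO302 and to between 70.2 and 106 CPM in the other 5, and in cluster 1 to 2016 CPM in CMO303 and to between 65.6 and 180 CPM in the other 5.

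Saa3 and Zcwpw1, both lower at 20 months in BL/6 blood, were higher at 20 months in the SM/J cells of the series. Saa3 stood at 210 and 56.3 CPM in BL/6 and 545 and 4453 CPM in SM/J, and Zcwpw1 at 42.8 and 8.54 CPM against 35.9 and 833 CPM. These values are sums over all cells, and the makeup of the SM/J cells also differed between the ages. Cavity-type macrophage-like cells, where most BL/6 Saa3 UMIs lay, numbered 35 in SM/J at the younger age and 398 at the older. Zcwpw1 was the top gene of a B cell-like cluster, number 26, to which SM/J gave 15 and 866 cells and BL/6 gave 0. Neither the part of class makeup in these SM/J values nor the difference between the strains was tested.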
